A study of Homo sapiens with 6 samples.

Results

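A group of 10 annotated human miRNAs that overlap ribosomal RNA, U2 snRNA or H/ACA snoRNAs was followed through an m7G RNA immunoprecipitation experiment. They are hsa-miR-3687, hsa-miR-3648, hsa-miR-663a and hsa-miR-7641 (ribosomal), hsa-miR-1246 (U2), and hsa-miR-1291, hsa-miR-664a-5p, hsa-miR-664a-3p, hsa-miR-1248 and hsa-miR-3651 (snoRNA), and they were chosen by name as 10 of the 2588 miRNAs in the count table. The cells were Caco-2, an established colorectal adenocarcinoma line grown with 20% serum, without any knockdown or drug. Total RNA was heat-denatured and pulled down with an antibody against N7-methylguanosine (m7G), giving 3 m7G-RIP libraries, and 3 input libraries were made from RNA that was not pulled down. The protocol, written for another cell line, decaps the RNA first and elutes it with 7-methyl-GTP. No library made with an unrelated antibody was analysed here. The labels do not say whether the libraries of a group came from separate cultures, so p-values measure only the spread between these libraries, which may be technical.

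A miRNA is normally cut out of a hairpin by DROSHA and DICER and loaded into an Argonaute protein, where bases 2 to 8 of the mature strand, the seed, pair with target mRNAs. Some names in the miRNA catalogue lie instead inside structural RNAs that are far longer. H/ACA snoRNAs fold into a pair of hairpins and guide pseudouridylation of other RNAs, with an ACA box near the 3′ end. The ribosomal precursor is cut into 18S, 5.8S and 28S rRNA and its spacers are discarded. U2 snRNA is a spliceosome component with a trimethylated guanosine cap, and 18S rRNA carries an internal m7G. Counts of short reads do not tell a mature miRNA from a fragment of the longer RNA.

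Mature sequences were given for 8 of the 10 entries in RefSeq (GRCh38.p14), and all 8 were found whole, without a mismatch, in an rRNA, snRNA, snoRNA or scaRNA. The entries had been named for such overlap, so their matches follow from the choice. A whole match of this kind was found for 21 of the 2281 measured miRNAs with a sequence. Precursor spacers, ribosomal pseudogenes and mitochondrial rRNA were counted as rRNA. The sequences are shown because the counted stretch, and its guanosine content in particular, differs widely within the group. Capitals mark the seed.
hsa-miR-3648: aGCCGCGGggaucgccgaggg
hsa-miR-663a: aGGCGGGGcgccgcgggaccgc
hsa-miR-1246: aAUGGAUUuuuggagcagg
hsa-miR-1291: uGGCCCUGacugaagaccagcagu
hsa-miR-664a-5p: aCUGGCUAgggaaaaugauuggau
hsa-miR-664a-3p: uAUUCAUUuauccccagccuaca
hsa-miR-1248: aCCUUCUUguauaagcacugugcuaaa
hsa-miR-3651: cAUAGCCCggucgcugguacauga
No seed was shared between any of these 8. Both ribosomal sequences came from the spacer in front of 18S: miR-663a occupied bases 2050 to 2071 and miR-3648 bases 2513 to 2533 of the 13351-base precursor RNA45SN1, in which 18S starts at base 3655. The annotated miR-3648 locus shown here is chr21:8987026-8987046 on the plus strand, and miR-663a is annotated at chr20:26208243-26208264 on the minus strand, in an exon of the long noncoding RNA MIR663AHG. The miR-1246 sequence, annotated at chr2:176601024-176601042 (minus strand), matched bases 94 to 112 of the 191-base RNU2-1, away from the capped end.

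The 5 snoRNA entries had GENCODE hosts at their own locus. Both arms of miR-664a, at chr1:220200586-220200609 (5p) and chr1:220200549-220200571 (3p) on the minus strand, lay in SNORA36B, a snoRNA of 131 bases in RAB3GAP2 with no RAB3GAP2 exon over either arm. miR-1291 (chr12:48654494-48654517, minus) covered bases 2 to 25 of SNORA2C, within KANSL2 and outside its exons. miR-1248 (chr3:186786675-186786701, plus) covered the first 27 bases of SNORA81 and overlapped an exon of at least 1 EIF4A2 transcript. miR-3651 (chr9:92292461-92292484, minus) formed the last 24 bases of SNORA84, within IARS1 and outside its exons. An ACA exactly 3 bases before the 3′ end, searched on the sense strand only, was present in SNORA36B, SNORA2C and SNORA84, not in SNORA81, and in 29.6% of all 942 annotated snoRNA transcripts, C/D box snoRNAs included. The stretches of miR-664a-3p and miR-3651 contain it.

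Together these entries were a very small part of each library. Total counts ranged from 16466178 to 19628046 in the input and from 1654102 to 3105129 in m7G-RIP, and 3 counts, taken as the floor per library, corresponded to 0.235 to 0.262 CPM and 0.675 to 1.10 CPM (counts scaled to a common library size with TMM factors, a trimmed mean of ratios between libraries). Floors cover counting error only. The 10 entries took 0.00876% ± 0.000605 (SD, n = 3) of all miRNA counts in the input and 0.0218% ± 0.00391 (SD, n = 3) in m7G-RIP. No m7G-RIP value overlapped the input values, from 0.0173% to 0.0242% against 0.00820% to 0.00940%, and the exact two-sided permutation p was 0.1, the smallest that 3 against 3 libraries allow. These shares are of total counts and therefore move with the composition of the libraries. The 5 intestinal and epithelial marker miRNAs summed to between 92593 and 99130 CPM in the input, with miR-192-5p the highest. In m7G-RIP their sum ranged from 32743 to 41123 CPM. Of 8 markers of other tissues, summing to 1462 to 1517 CPM in the input and 966 to 1346 CPM in m7G-RIP, the liver marker miR-122-5p and the myeloid marker miR-223-3p had 0 counts in all input libraries, while the endothelial miR-126-3p and the muscle miR-1-3p were at 778 ± 40.5 and 644 ± 35.3 CPM (SD, n = 3). The libraries are bulk, so the number of cells with an RNA and its amount per cell cannot be told apart. In the protocol the input is an aliquot saved from the RNA to be pulled down. The contrast of m7G-RIP with input is then one of recovery in the pulldown and not of levels between cells.

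**Figure D1:**
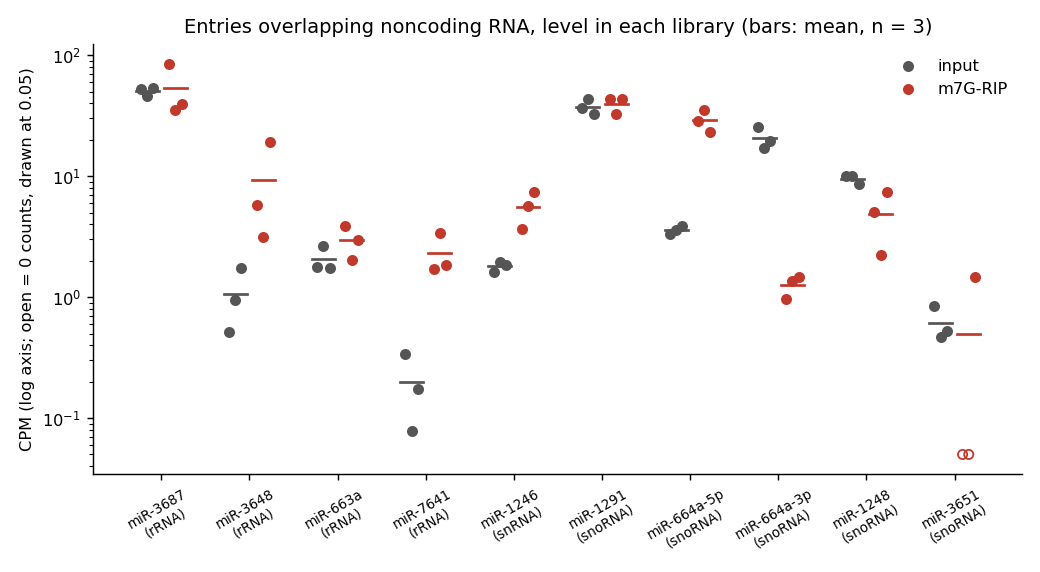
Level of each of the 10 entries in CPM (log axis) in the 3 input and 3 m7G-RIP libraries, with bars at the group means and open circles for 0 counts, drawn at 0.05. The groups separate upward for miR-664a-5p, miR-3648, miR-7641 and miR-1246, and downward for miR-664a-3p and miR-1248; miR-7641 and miR-3687 were placed with rRNA by name and not by sequence.

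The low-count filter kept 9 of the 10 entries. At the threshold of 0.05 for the adjusted p (edgeR quasi-likelihood test, adjusted by Benjamini-Hochberg over the 800 miRNAs kept) 4 of them were higher and 2 lower in m7G-RIP. Of the 4, miR-7641 and miR-3648 passed the filter only through the m7G-RIP libraries, where they are high, and had to differ. Of all 800 miRNAs, 40.1% were called higher and 38.1% lower (78.2% in either direction), so neither count sets the group apart from the table as a whole. The median log2 enrichment of the 9 was 0.50, beside 0.16 for all 800. The entries differed widely among themselves, from -4.05 for miR-664a-3p to 3.48 for miR-7641. Of all calls, 51.3% were higher with TMM, 69.1% when scaled by total counts, 64.8% by the upper quartile and 45.1% by DESeq2 size factors.

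**Figure D2:**
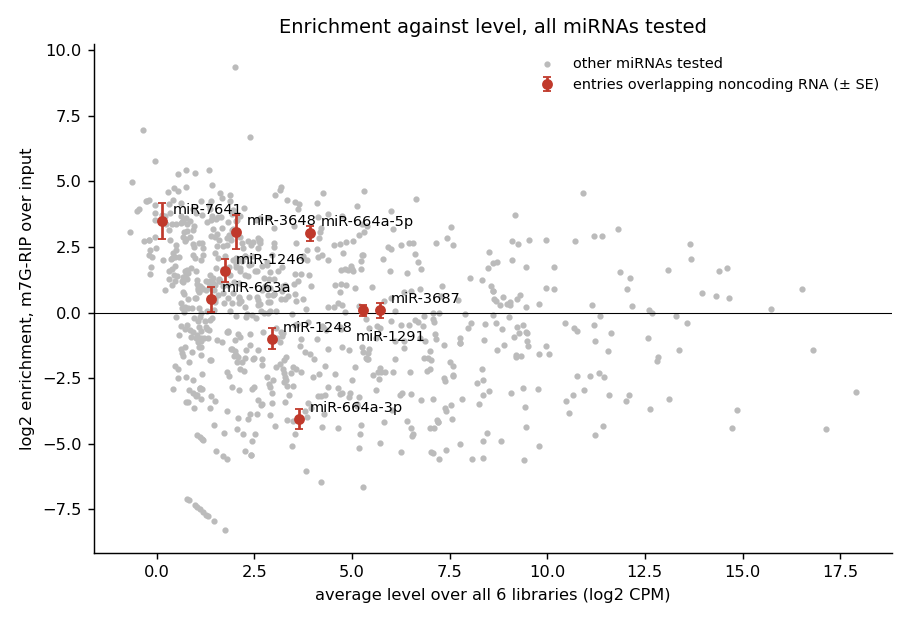
Log2 enrichment of m7G-RIP over input against the average log2 CPM over all 6 libraries, for the 800 miRNAs tested (grey) and the 9 tested entries of the group (red, ± standard error). The entries spread from -4.05 to 3.48, and no entry lies beyond the other miRNAs.

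The arms of miR-664a, which lie in a single snoRNA, differed in opposite directions. hsa-miR-664a-5p stood at 3.32, 3.60 and 3.84 CPM in input replicates 1, 2 and 3 and at 28.6, 35.1 and 23.2 CPM in m7G-RIP replicates 1, 2 and 3. Every m7G-RIP library was thus above every input library, with a log2 enrichment of 3.02 (standard error, SE, 0.29; edgeR adjusted p = 5.82e-07), or 8.09-fold. hsa-miR-664a-3p showed the opposite order, with 25.7, 17.1 and 19.7 CPM in the input and 0.971, 1.35 and 1.47 CPM in m7G-RIP. Again the groups did not overlap, and the log2 enrichment was -4.05 (SE 0.38, edgeR adjusted p = 5.72e-07). The m7G-RIP values of this arm rest on only 4, 6 and 4 counts. In the input the 3p arm was the more abundant, and in m7G-RIP the 5p arm. The log2 ratio of 3p to 5p counts (0.5 added to each) was 2.93, 2.24 and 2.35 in the input and -4.72, -4.59 and -3.82 in m7G-RIP. This ratio is taken within each library and does not depend on the scaling. It differed by -6.88 between the group means (exact two-sided permutation p = 0.1, the smallest possible with 3 against 3), beside SDs of 0.373 in the input and 0.487 in m7G-RIP. The hairpin that holds both arms, chr1:220200538-220200619 on the minus strand, is shown with the arms in capitals, the 5p arm first.
MIR664A: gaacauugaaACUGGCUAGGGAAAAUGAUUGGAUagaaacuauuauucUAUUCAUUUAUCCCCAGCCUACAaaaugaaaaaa
Within SNORA36B the 5p stretch ran from base 68 to 91 and the 3p stretch from base 106 to 128. Guanosine made up 33.3% of the 5p arm, including a run of 3, and 4.35% of the 3p arm, a single base.

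**Figure D3:**
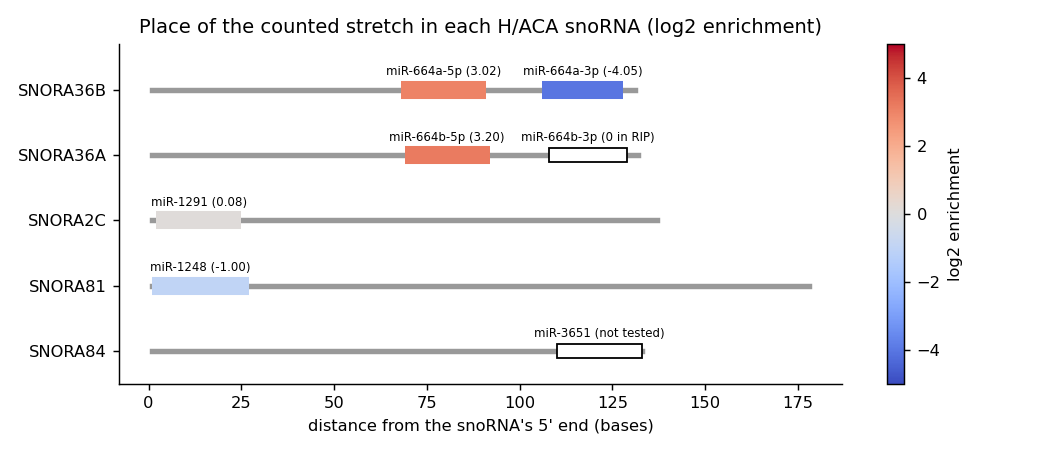
Place of the counted miRNA stretches (blocks) along their host H/ACA snoRNAs (grey lines) in bases from the 5′ end, coloured by log2 enrichment of m7G-RIP over input with the value printed above. In SNORA36B the inner stretch had a log2 enrichment of 3.02 and the stretch at the 3′ end one of -4.05; SNORA36A, the host of miR-664b, is drawn for comparison, and its 3p stretch, left white like the untested miR-3651, had 0 counts in m7G-RIP.

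The remaining snoRNA entries lay closer to 0 or were rare. hsa-miR-1291, at the 5′ end of SNORA2C, had 36.3, 43.3 and 32.5 CPM in the input and 43.7, 32.4 and 43.1 CPM in m7G-RIP. The groups overlapped, and the log2 enrichment was 0.08 (SE 0.22, edgeR adjusted p = 0.735). It was called higher when scaled by total counts (1.19) or by the upper quartile (0.90). miR-1248, at the 5′ end of SNORA81, had 9.97, 9.95 and 8.55 CPM in the input and 5.10, 2.25 and 7.37 CPM in m7G-RIP. All m7G-RIP values were below the input, and m7G-RIP replicate 2 was the lowest. Enrichment on the log2 scale was -1.003 (SE 0.40, edgeR adjusted p = 0.0354). This call was lost without any 1 of the input libraries (edgeR adjusted p from 0.0898 to 0.116), without m7G-RIP replicate 2 (0.0506) and with the replicate number as a block (0.0585), and with total counts the sign turned (0.11). hsa-miR-3651, at the 3′ end of SNORA84, was too rare to be tested, with 10, 6 and 6 counts in the input and 0, 0 and 4 in m7G-RIP. A difference was not detectable at this depth.

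Of the ribosomal entries, miR-3687 was the most abundant in the input. This entry (hsa-miR-3687) had 53.0, 45.9 and 53.9 CPM in the input and 85.4, 35.6 and 39.8 CPM in m7G-RIP. Only m7G-RIP replicate 1 lay above the input libraries, and the other two lay below them. The fitted log2 enrichment was 0.08 (SE 0.29, edgeR adjusted p = 0.815). Without m7G-RIP replicate 1 it turned to -0.47 (edgeR adjusted p = 0.0381), and with total counts it rose to 1.14 and was called. hsa-miR-3648 had 0.511, 0.940 and 1.75 CPM in the input and 5.82, 3.15 and 19.2 CPM in m7G-RIP. The groups did not overlap, and m7G-RIP replicate 3 was far above the others. The fitted log2 enrichment was 3.07 (SE 0.67, edgeR adjusted p = 0.000896). This value fell to 1.97 without m7G-RIP replicate 3 and rose to 3.66 without input replicate 3, and it stayed a call in both cases. The entry reached the filter in all 3 m7G-RIP libraries and in 1 input library, so it could enter the test only through m7G-RIP and its call carries no weight of its own.

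The balance of the ribosomal names miR-3687 and miR-3648 differed between the groups. The log2 ratio of miR-3687 to miR-3648 counts (0.5 added) was 6.58, 5.55 and 4.92 in the input and 3.85, 3.45 and 1.05 in m7G-RIP. All m7G-RIP ratios were below all input ratios, with a difference of -2.90 between the means (exact two-sided permutation p = 0.1, the smallest possible). With log2 enrichments of 0.08 for miR-3687 and 3.07 for miR-3648, this difference largely repeats that of miR-3648 and is not a separate result. The spread within m7G-RIP was wide (SD 1.51), and without m7G-RIP replicate 3 the difference was -2.03. All 6 counts of each of these entries were even numbers (6, 12, 20, 24, 14 and 52 for miR-3648). Among 554 tested miRNAs at 1 annotated locus with a count in every library, 9 (1.62%) had 6 even counts. How reads with several loci were counted is not given in the sources used here, and its part in the even counts was not tested. With both entries halved, the log2 enrichment of miR-3648 was 3.03 (edgeR adjusted p = 0.00188).

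hsa-miR-663a had 1.79, 2.66 and 1.75 CPM in the input and 3.88, 2.03 and 2.95 CPM in m7G-RIP, on 8 to 34 counts. The groups overlapped and the log2 enrichment, 0.50, was about as large as its SE, 0.48 (edgeR adjusted p = 0.343). It was called higher when scaled by total counts (1.59) or by the upper quartile (1.32). hsa-miR-7641 had 4, 1 and 2 counts in the input and 7, 15 and 5 in m7G-RIP, or 0.341, 0.0783 and 0.175 CPM against 1.70, 3.38 and 1.84 CPM. The groups did not overlap and the log2 enrichment was 3.48 (SE 0.68, edgeR adjusted p = 0.00039). Because no input library reached the filter, this entry could enter the test only by being higher in m7G-RIP, and its call carries no weight of its own.

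The U2 entry hsa-miR-1246 had 1.62, 1.96 and 1.83 CPM in the input and 3.64, 5.63 and 7.37 CPM in m7G-RIP. All m7G-RIP libraries were above all input libraries, with a log2 enrichment of 1.59 (SE 0.44, edgeR adjusted p = 0.0047), on 15 to 25 counts in every library. Its 19-base sequence occurs at 20 places in the GRCh38 contigs searched, against 9 for miR-663a, 8 for miR-3648 and 1 for each of the snoRNA entries. The mapping described in the methods keeps reads with up to 10 loci. The counts of miR-1246, miR-663a and miR-3648 are therefore uncertain.

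**Figure D4:**
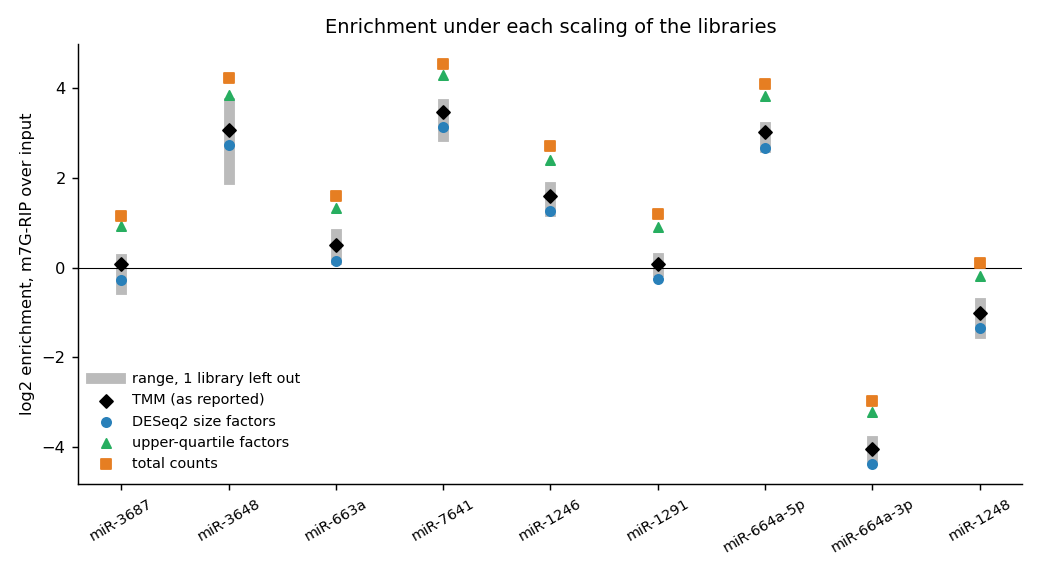
Log2 enrichment of the 9 tested entries under TMM (black), DESeq2 size factors (blue), upper-quartile factors (green) and total counts (orange), with grey bars for the range when 1 library was left out. miR-664a-5p, miR-3648, miR-7641 and miR-1246 stay above 0 and miR-664a-3p below 0 under each of them, while miR-1248, at -1.003 with TMM, reaches 0.11 with total counts.

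Scaling moved all miRNAs together. Set beside its value with TMM, the median log2 enrichment over the 800 miRNAs moved by 1.09 when total counts were used, by 0.82 with factors from the upper quartile and by -0.34 with DESeq2 size factors. The order of the entries was the same in each, apart from miR-1291 and miR-3687, which lie side by side, and miR-664a-5p, miR-664a-3p and miR-1246 kept their direction and their call in every alternative in which they were tested. So did miR-3648 and miR-7641, but for these the filter fixes the direction in the main fit. Without a filter they stood at 2.74 and 3.18, on the same low input counts. miR-3687, miR-663a and miR-1291 were called higher when scaled by total counts or by the upper quartile, and miR-1248 was then no longer called lower.

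The order of the entries was compared with the guanosine content of the counted stretch. From the richest to the poorest these were miR-663a (54.5% guanosine), miR-3648 (52.4%), miR-1246 (36.8%), miR-664a-5p (33.3%), miR-1291 (29.2%), miR-1248 (14.8%) and miR-664a-3p (4.35%). The 4 entries above 30% all had a positive log2 enrichment and the 2 below 20% a negative one, though miR-663a, the richest, was not called. Of these signs, that of miR-3648 is fixed by the filter, and that of miR-1248 turned with total counts (0.11). Over the 714 tested miRNAs with a sequence, Pearson's r between guanosine share and log2 enrichment was 0.498 and Spearman's rho 0.497, a description across miRNAs that share the same 6 libraries. Of the 172 with over 40% guanosine, 89.0% were called higher and 2.91% lower. Of the 153 between 30% and 40%, 39.2% were called higher and 39.9% lower. Of the 186 between 20% and 30%, 15.1% were called higher and 59.7% lower. Of the 203 at or under 20%, 24.1% were called higher and 44.8% lower, so the shares did not rise steadily with guanosine content. The low-count filter also fixes the direction of some miRNAs in these shares and correlations. Above 40%, miR-3648 and miR-664b-5p (45.8%) entered the test only through m7G-RIP, and at the low end miR-664b-3p (9.09%) only through the input. How many miRNAs of each range entered in this way was not counted. The part of guanosine content in the results of single entries was not tested.

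**Figure D5:**
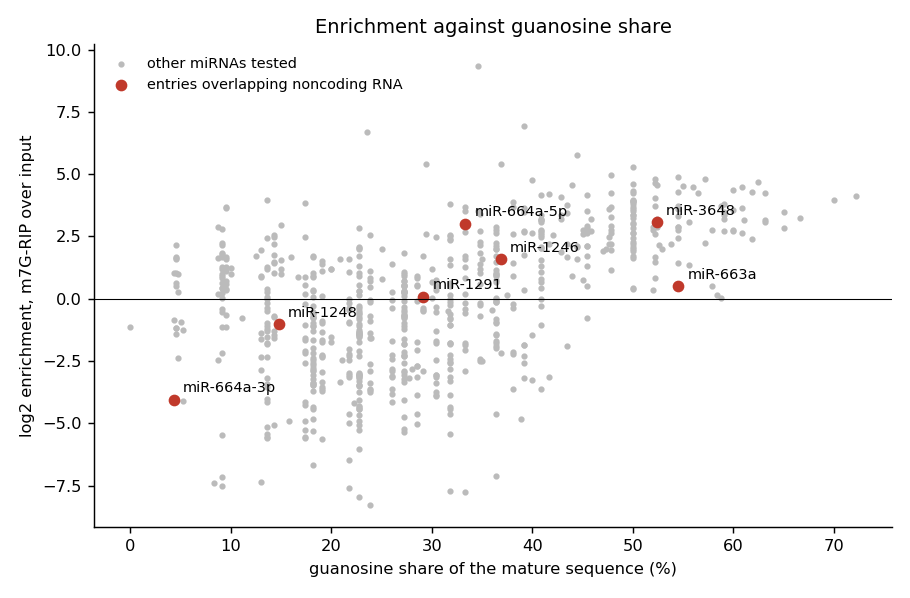
Log2 enrichment of m7G-RIP over input against the guanosine share of the mature sequence in percent, for 714 tested miRNAs with a sequence (7 of the group in red). miR-664a-3p lies at 4.35% and -4.05 and miR-664a-5p at 33.3% and 3.02. Above 40% guanosine 89.0% of the miRNAs were called higher, some of which passed the low-count filter only through m7G-RIP.

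A list of 20 other names listed for overlap with snoRNA, scaRNA, rRNA or tRNA was examined beside the group. Of these, 16 were in the table and 11 were tested, with 5 called higher and 4 lower (40.1% and 38.1% of all 800 miRNAs) and a median log2 enrichment of 0.60. Of these calls, miR-664b-5p passed the filter only through m7G-RIP, and miR-664b-3p, miR-3607-3p and miR-6516-5p only through the input, each where it is high, so these 4 had to differ. All 4 tested ribosomal names were called higher: miR-6087 (2.64, SE 0.26), miR-6724-5p (2.63, SE 0.30), miR-663b (1.62, SE 0.26) and miR-4485-3p (0.81, SE 0.29, edgeR adjusted p = 0.0225), the last of which was not called at a threshold of 0.01. miR-6724-5p (60.9% guanosine) and miR-663b (50.0%) lie above 40%, where 89.0% of tested miRNAs were called higher. miR-4485-3p had 25.0% and was found whole in a sequence counted as rRNA, though not in the ribosomal precursor sequences searched. For miR-6724-5p no whole match was found in any rRNA, snRNA, snoRNA or scaRNA searched, and miR-6087 had no sequence to place. All 6 counts of miR-6724-5p were multiples of 4. Of the 6 tested snoRNA and scaRNA names, 1 was higher and 3 lower. miR-1260b, listed for its overlap with tRNA, was lower (-1.26, SE 0.29). miR-664b, in the related snoRNA SNORA36A within DKC1, had its arms at nearly the same places as miR-664a, from base 69 to 92 and from base 108 to 129 of 132. Its 5p arm, with 45.8% guanosine, had 1.36, 0.235 and 1.22 CPM in the input and 4.13, 6.08 and 16.6 CPM in m7G-RIP (log2 enrichment 3.20, SE 0.65). Its 3p arm, with 9.09%, had 28, 26 and 26 counts in the input and 0 in each m7G-RIP library, which is at least 2.67-fold lower against a floor of 3 counts per library. The arms of the miR-664a and miR-664b hairpins differ by 8 edits in the 5p and 5 in the 3p sequence. Whether the arms of miR-6516, from SCARNA16, differ in direction could not be told. Its 5p arm (-3.29, SE 0.79) could enter the test only by being lower, and its 3p arm was too rare to test. Its log2 ratio of 3p to 5p counts, computed as for miR-664a, overlapped between the groups. The ratio was -1.91, -2.11 and -2.97 in the input and 1.58, -2.32 and 2.66 in m7G-RIP. In miR-3607 the 3p call was fixed by the filter in the same way, and the 5p arm was not tested. In miR-3653 neither arm was called (3p 0.60, SE 0.38, and 5p 0.04, SE 0.35).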

How the data were processed

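Per the methods and the labels, the authors trimmed adaptors with Trimmomatic, mapped reads to GRCh38 with STAR (end to end, 1 mismatch, up to 10 loci) and counted them on mature miRNAs of miRBase 22 with featureCounts; the submitters' processing notes name Bowtie2 as the mapper. The deposited values are raw counts per miRNA and library. From these, the log2 ratio of m7G-RIP to input (log2 enrichment) was fitted to the whole table with edgeR 4.0.16 in R 4.3.3 (filterByExpr with a minimum count of 10 and total of 15, TMM, quasi-likelihood test, Benjamini-Hochberg adjustment, threshold 0.05), tested on simulated data. The standard error is the absolute log2 value divided by the square root of F. Ratios and shares were compared by exact permutation tests over libraries. Sequences came from RefSeq and hosts from GENCODE release 44, both on GRCh38; sequences matched by name for 2281 of 2588 miRNAs. Host matches used edlib and Python 3.11.15. Alternative contigs were left out of the genome search. DESeq2 1.42.0, other scalings, filters and thresholds, the replicate block and each library left out were tried. Replicates of a group differed by more than sampling noise (chi-square divided by its degrees of freedom lay between 17.5 and 105). The named entries and lists were chosen with earlier results of these data known: the 10 members, plus the list of other overlapping names. The halving of counts was chosen after seeing the data.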

Additional observations from a re-analysis of the deposited data

How the results depend on the processing

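The number of entries called higher, 4, was 7 when scaled by total counts or by the upper quartile, 2 where every library had to hold 10 counts, and 3 to 4 with each library left out. The number called lower, 2, was 1 with each of these 3 settings, with the replicate block and at an adjusted p under 0.01, and 1 to 3 with each library left out. Where every library had to hold 10 counts, miR-3648, miR-663a, miR-7641 and miR-664a-3p were not tested, and without any 1 input library miR-7641 was not. Of the other overlapping names, the 5 called higher became 4 to 5 and the 4 called lower 2 to 5 with each library left out. The higher calls were 7 by total counts and by the upper quartile, and 4 with DESeq2 size factors, the replicate block and an adjusted p under 0.01. The lower calls were 2 by total counts and 1 where every library had to hold 10 counts. Of single values, miR-1248 turned from -1.003 to 0.11 with total counts, and miR-3687 from 0.08 to -0.47 without m7G-RIP replicate 1 (from -0.47 to 0.19 over each library left out); the cause was not tested. The difference in the share of counts, 0.0130 percentage points, was 0.00886 without miR-3687 and 0.0118 to 0.0153 with each library left out. The ratio of miR-664a arms stayed between -7.16 and -6.67, and that of miR-3687 to miR-3648 between -3.43 and -2.03 with each library left out (exact permutation p = 0.2 without input replicate 1 and 0.1 without any other); with group medians it was -2.10 (p = 0.2). Same-numbered libraries did not deviate together (correlations of -0.0275 to 0.06), and of the input libraries only replicate 3 matched its own number best; the block changed the call of miR-1248 and of no other tested entry of the group. Depth limits the rarest entries, miR-7641 and miR-3651, in every setting run.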

Other observations

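Beyond the named lists, a few other miRNAs were found whole in ribosomal RNA, with precursor spacers, ribosomal pseudogenes and mitochondrial rRNA counted in. Of the 11 measured miRNAs with such a match, 6 were tested, 5 were called higher and 0 lower in m7G-RIP, beside 40.1% and 38.1% of all 800 miRNAs tested. miR-4466 (log2 enrichment 4.13) and miR-1268b (3.97) were among them and were chosen after their values were seen. Both, like miR-3648, passed the low-count filter only through m7G-RIP and had to differ. Of the tested rRNA matches, miR-4466 (72.2% guanosine), miR-1268b (70.0%), miR-663a (54.5%), miR-3648 (52.4%) and miR-663b (50.0%) lie above 40%. In that range 89.0% of tested miRNAs were called higher, so the calls of this set are not apart from that share. Of the 9 found whole in a snoRNA or scaRNA, 7 were tested, of which 2 were called higher and 4 lower, beside the same shares of all miRNAs. Among these calls, miR-664b-5p passed the filter only through m7G-RIP, and miR-664b-3p and miR-6516-5p only through the input, so they had to differ. These sets share members with the group and were not tested against the rest.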
